A study of Danio rerio with 4 samples.

Results

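Long chains of 5-hydroxymethylcytosine (5hmC) in embryonic zebrafish (Danio rerio) heart DNA were examined, that is, stretches over 50 kb in which regions marked in both captures followed each other at gaps of at most 5 kb. The members were chosen by the positions of the peaks. Peaks of the 2 captures that overlapped by 1 bp or more were merged, merged regions with a peak from each capture were kept as shared regions, and neighbouring shared regions were linked across gaps of up to 5000 bp. Of 110315 shared regions, 14725 lay in 671 chains longer than 50000 bp. The 14171 of them that were at most 5000 bp wide are the members, 12.8% of all shared regions. The other 554, which were wider, counted towards chain length and coverage but are not members.

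Both captures were made from untreated fish of wild-type genotype, 48 hours after fertilisation. 5hmC in sheared heart DNA was tagged with a modified glucose and biotin, pulled down on streptavidin beads and sequenced. The labels give AB as the strain, and their growth protocol names crosses of AB and TU fish. Each group was a pool of at least 40 dissected hearts, so that differences between single animals or between the cell types of the heart cannot be seen. The series held 4 samples of 1 condition, 2 captures and 2 inputs with the same replicate numbers; values of the inputs were not analysed here, and no marker of the heart is measured by a peak list. The labels do not say that the pools came from separate clutches, so the spread between replicate 1 and replicate 2 may be technical.

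5hmC is made when TET enzymes oxidise 5-methylcytosine, as a step of DNA demethylation or as a lasting mark. In vertebrate tissues it is known from the bodies of active genes and from enhancers. Zebrafish embryos that lack Tet enzymes are known for defects of the developing heart. No genome or annotation of the danRer7 build was used here, so chains are given by position on danRer7, counted from 1, with no gene and no sequence assigned.

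Replicate 1 had 145501 peaks and replicate 2 had 145893. The read depth behind single peaks is unknown from the files. Each peak carries a score from the authors' peak caller, with a lowest value of 50.0 in both lists and no stated scale. The lowest value, and 3 peaks at exactly 3100, resemble the way MACS reports a p-value as a multiple of its negative log10, but 1 peak lies above 3100 and the scale could not be settled. On such a scale a ratio of scores is a ratio of log p-values, so the score ratios below are not to be read as ratios of 5hmC. A region's score in a replicate is the highest score among its peaks there. With 1 condition and 2 captures no test between groups was possible, and regions of the same library are not replicates. Score comparisons are therefore given in both replicates, and the main score ratios also with the number of chromosomes that show them.

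Long chains were a small part of the genome with closely set 5hmC regions. Together they spanned 52.1 Mb, or 3.84% of the 1356.8 Mb that the chromosomes span up to their last peak. Shared regions stood at 282.4 per Mb inside them and at 73.3 per Mb elsewhere, which follows from how chains were chosen. The median chain was 68.3 kb long (quartiles 57.5 and 87.1 kb) and held 19 regions (quartiles 16 and 25). Chains of 50 to 60 kb numbered 207, and chains of 60 to 75 kb 204. A further 149 measured 75 to 100 kb, 87 measured 100 to 150 kb, 19 measured 150 to 200 kb and 5 exceeded 200 kb. Numbers thus fell off with length.

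The 50 kb limit cut through a continuous range. The longest chain left out measured 49978 bp and the shortest one kept 50014 bp, each with 14 regions. The 121 chains of 50 to 55 kb held a median of 15 regions with 54.24% covered, and the 149 chains of 45 to 50 kb held 13 with 55.03% covered. Regions of at most 5000 bp in these chains had median scores of 160.9 just inside the limit and 158.2 just outside it in replicate 1, and of 172.2 and 168.9 in replicate 2.

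Shared regions covered most of the average chain. Because the linking rule bounds each gap, this is partly fixed by the choice. The covered share had a median of 57.3% (quartiles 51.3 and 64.7%), from 34.6% to 95.4%, and it was above 50% in 535 of the 671 chains. Coverage was a little higher in longer chains: its median was 54.5% in chains of 50 to 60 kb and 65.8% in the 5 chains above 200 kb (Spearman's rho across chains 0.22). All peaks of 1 capture within a chain, shared or not, were also counted. Those of replicate 1 covered a median of 52.9% of a chain and those of replicate 2 56.4%. Replicate 2 covered more than replicate 1 in 519 chains, and the median difference over all 671 chains, replicate 2 minus replicate 1, was 2.96 percentage points. The covered shares of the replicates were correlated across chains (Spearman's rho 0.87). These points share the libraries, so the correlations carry no p-value.

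**Figure D1:**
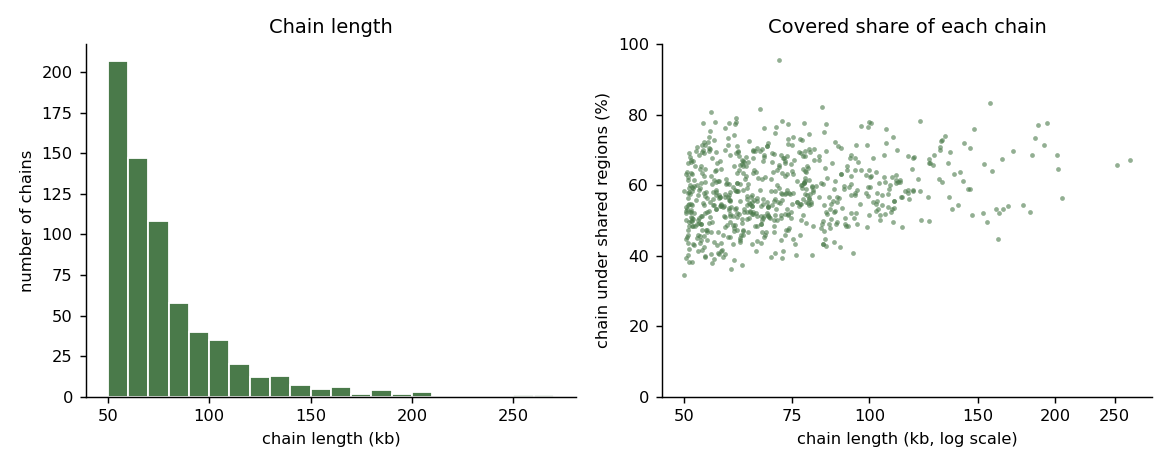
Left, number of long chains by length in 10 kb steps; right, percentage of each of the 671 chains that lies under shared regions against its length on a log scale. Most chains are 50 to 75 kb long, and the covered percentage lies between 34.6 and 95.4 with a weak rise along the length axis.

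The gaps inside chains were mostly far shorter than the 5 kb that was allowed. The median gap was 1222 bp (quartiles 528 and 2231 bp) in long chains and 1721 bp (quartiles 837 and 3005 bp) in shorter chains. The linking gap and the length limit bear on this contrast, so part of it may follow from the choice. Gaps of at most 1 kb made up 42.4% in long chains and 29.4% in shorter ones, and gaps of 4 to 5 kb 5.97% and 11.5%. Yet most long chains held some wide gap: the widest had a median of 4367 bp, it exceeded 4000 bp in 476 of the 671 chains, and in 37 chains it was at most 3000 bp. Pooled over chains, gaps were narrower in the middle, with a median of 1181 bp, than at the first and last place, where it was 1448.5 bp. Chains with many regions weigh more in the value for the middle, and no comparison within chains is given.

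Few peaks in the chains were found in 1 capture alone. Chain spans held 16853 peaks of replicate 1 and 16377 of replicate 2. Of these, 844 (5.01%) and 921 (5.62%) had no partner, against 23.1% and 24.7% of the peaks elsewhere. Part of this contrast is fixed by the choice of shared regions. The peaks without a partner inside chains scored low, with medians of 69.4 in replicate 1 and 72.0 in replicate 2, near those of such peaks elsewhere (67.7 and 69.3). They lay under 4.04% of the gap bases in replicate 1 and 4.72% in replicate 2, so that the gaps were empty in both lists over most of their length. In 54 chains neither replicate had a peak of its own.

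The members scored higher than other shared regions of at most 5000 bp in both captures. In replicate 1 the median score was 182.1 for the 14171 members (quartiles 110.5 and 303.0) and 117.1 for the 94776 others (quartiles 79.2 and 183.0). In replicate 2 it was 194.5 for members (quartiles 117.0 and 326.8) and 123.7 for the others (quartiles 81.9 and 196.5). The ratio of the medians was 1.55 in replicate 1 and 1.57 in replicate 2. It was above 1 on all 25 chromosomes in both replicates, at 1.56 ± 0.094 and 1.57 ± 0.092 (mean and SD over chromosomes), with chromosome 12 highest in both (1.83 and 1.79). Regions with no neighbour within 5 kb were the lowest, with medians of 100.8 and 105.6.

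The difference was seen at both ends of the score range. Among members 28.3% ranked in the top 10% of the scores of their list in each replicate, against 9.73% of the others in replicate 1 and 9.80% in replicate 2. The bottom 10% held 2.87% and 2.85% of members, and 6.41% and 6.13% of the others. Chain by chain, the median member score exceeded the median of the other regions in 635 of 671 chains in replicate 1 and 638 in replicate 2.

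Width went along with this. Members had a median width of 1673 bp and the others of 1396 bp, and wider peaks score higher. Within each width class the members still scored higher. Below 1000 bp the medians were 109.2 for members and 88.9 for others in replicate 1, and 113.1 and 91.9 in replicate 2. Between 1500 and 2000 bp they were 191.8 and 130.4 in replicate 1, and 201.1 and 138.4 in replicate 2. Between 3000 and 5000 bp they were 363.4 and 227.2 in replicate 1, and 415.5 and 261.5 in replicate 2. Members and others thus lay farther apart in wider classes, on the scale of ratios as well as of scores.

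Scores went up step by step with the length of the chain a region stood in. In chains of at most 5 kb, mostly lone regions, the median scores were 101.5 (replicate 1) and 106.3 (replicate 2). Chains of 20 to 30 kb had 138.8 and 148.1, those of 50 to 75 kb 167.9 and 181.7, and those of 150 kb or more 220.3 and 230.0. The median width rose too, though by a smaller factor. It was 1270 bp in chains of at most 5 kb, 1541 bp in chains of 20 to 30 kb and 1695 bp in those of 150 kb or more. The rank correlation of the replicates rose along the same scale. Spearman's rho of the scores across regions was 0.53 in the shortest class, 0.68 at 20 to 30 kb and 0.80 in the longest. Over all members it was 0.76, and over the other regions 0.62. The wider range of scores among members was not adjusted for in these coefficients. By ratio the replicates were about as close in both sets. Quartiles of the replicate 2 over the replicate 1 score were 0.784 and 1.43 for members, and 0.770 and 1.43 for the others.

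**Figure D2:**
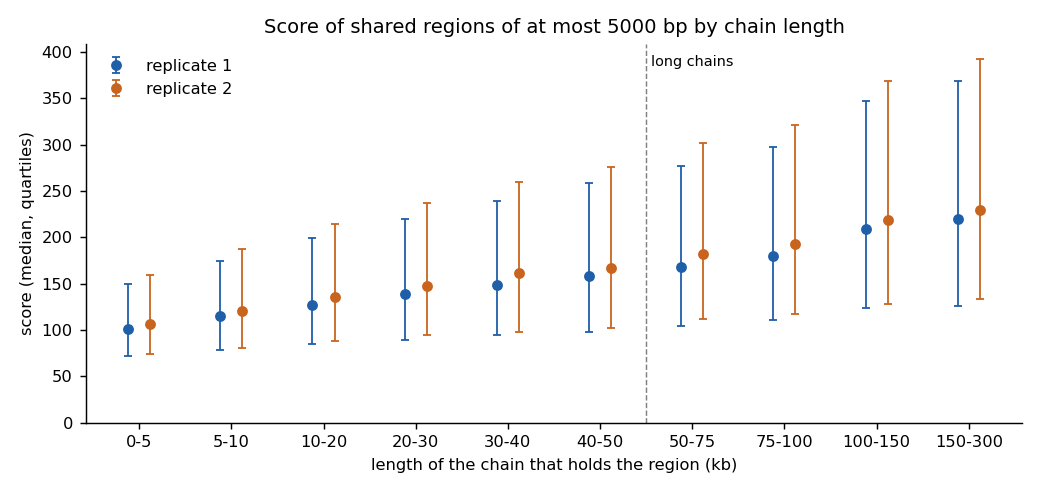
Score of shared regions of at most 5000 bp by the length class of the chain that holds them, for replicate 1 and replicate 2; points are medians and bars reach from the lower to the upper quartile. Medians rise in every step in both replicates, from 101.5 and 106.3 in chains of at most 5 kb up to 220.3 and 230.0 in the longest, while the quartiles of neighbouring classes overlap widely.

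Because a member needs a peak in both lists, its score is not fully independent of the choice. Chains were therefore also built from a single list and scored with the peaks of the other, shared or not. The median score of replicate 2 peaks of at most 5000 bp was 173.3 within long chains of replicate 1 (20154 peaks) and 101.4 outside them (124804 peaks). Replicate 1 peaks had a median of 160.1 in long chains of replicate 2 (22231 peaks) and 97.2 outside them (122728 peaks). The ratios, 1.71 and 1.65, were above 1 on 25 of 25 chromosomes in both directions, and reached 1.94 and 1.85. For peaks of 1000 to 2000 bp the ratios were 1.52 and 1.49. This did not make the scores fully independent of the choice. Peaks without a partner scored low. In the shared chains they made up 5.01% of replicate 1 and 5.62% of replicate 2 peaks, against 23.1% and 24.7% elsewhere. Part of these ratios may therefore follow from the choice.

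Members also scored higher than other regions close by. A member's 1 Mb window held a median of 128 shared regions and that of another region 93. The count includes regions of the member's own chain, so part of this difference follows from the choice. In 457 windows with at least 10 members and at least 10 other regions, the median score rank of the members was above that of the others in 420 windows in replicate 1 and 427 in replicate 2. The median of the difference was 15.9 percentile points (quartiles 7.69 and 23.6) in replicate 1 and 16.1 (quartiles 9.01 and 23.9) in replicate 2.

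Inside chains the scores dropped slightly towards the ends. The 12874 members inside a chain had median scores of 185.0 in replicate 1 and 196.9 in replicate 2, and the 1297 members at the ends had 158.4 and 169.6. The ratio of the medians, inside over end, was 1.17 and 1.16, and it was above 1 on 21 of 25 chromosomes in each replicate, from 0.879 to 1.56 and from 0.849 to 1.70. Pooled medians give more weight to long chains, which also score higher. Set against the inside median of its own chain, an end member was lower in 57.2% of cases in replicate 1 and 56.5% in replicate 2. The median difference, end minus inside, was -4.86 and -4.74 percentile points, and most end members were lower on 21 and 18 of 25 chromosomes. For the fifth region from the end the same percentages were 48.4 and 47.7. Both ends of a chain were then reduced to 1 median. By this measure the inside was higher in 345 of 669 chains in replicate 1 and in 326 in replicate 2. No drop was seen at that level. With 2 end members that median is their mean, which a high score pulls up, so a small drop could be missed. End members were also narrower (1681 bp inside and 1574 bp at the ends), and among members of 1000 to 2000 bp the medians lay closer: 162.1 inside and 147.6 at the ends in replicate 1, and 171.7 and 156.5 in replicate 2.

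In the 329 chains with 20 or more regions, scores were followed over 10 places inwards and over 5 regions beyond the end. Replicate 1 scores had medians of 161.1 at the end of the chain, 172.6 at the second place, 185.0 at the fifth and 204.1 at place 10. Replicate 2 scores were 173.1, 182.9, 200.8 and 210.8 at these places. Beyond the end, past a gap of over 5 kb, the next region had medians of 140.5 in replicate 1 and 153.3 in replicate 2, and the fifth region beyond had 144.5 and 154.3. The score thus stepped down across the chain end and changed little outside. Median width went the same way, with 1671.5 bp at place 10, 1584.5 bp at the end and 1508 bp at the next region beyond. Width was not held equal in this profile. Over all chains an end member scored higher than the next region beyond the end in 679 of 1265 pairs in replicate 1 (53.7%) and 687 in replicate 2 (54.3%), so that single pairs carried little of the step.

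**Figure D3:**
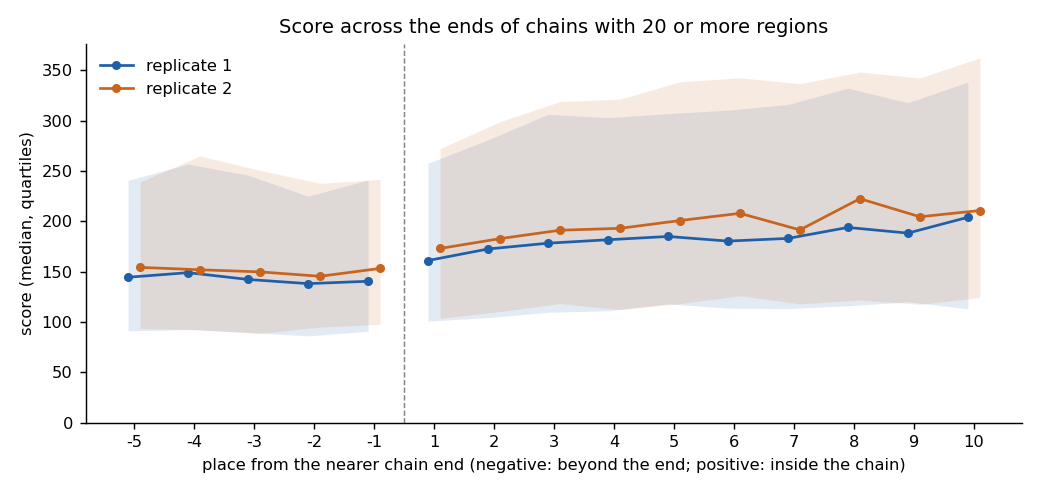
Score by place from the nearer end in the 329 chains with 20 or more regions; positive places lie inside the chain, negative ones are the next shared regions beyond it, lines are medians and bands reach from the lower to the upper quartile. Medians rise inwards, with dips between places, to 204.1 in replicate 1 and 210.8 in replicate 2 at place 10, and differ little beyond the end, and the bands overlap throughout.

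The strongest member could stand anywhere along a chain. Divided into 5 parts of equal length, chains held their highest replicate 1 member in parts 1 to 5 in 124, 137, 149, 144 and 117 cases. In replicate 2 the numbers were 137, 128, 142, 130 and 134. All members fell into these parts at 19.4 to 21.1% each. The same member was the highest in both replicates in 335 of 671 chains (49.9%). In 54 of 671 chains in each replicate the highest member was an end member, and 1297 of all 14171 members were end members.

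Members of a chain differed far more among themselves than chains did. The highest member score in a chain was a median of 10.0 times the lowest in replicate 1 and 10.5 times in replicate 2. Differences between chains made up 9.96% and 9.32% of the sum of squares of the members' score ranks. Any grouping of members gives some such share by itself, and this part was not subtracted. Neighbouring members had only weakly similar scores, with Spearman's rho of 0.13 in replicate 1 and 0.12 in replicate 2, against 0.11 in both for neighbours in shorter chains. At 10 places apart rho was still 0.058 and 0.061 in long chains. Correlating a member in replicate 1 with its neighbour in replicate 2 gave 0.11, near the value within a replicate. These are weak correlations across regions that share a chain and a library, and they carry no p-value.

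Along a chain, the captures ranked the members alike. In the 664 chains with 10 or more members, Spearman's rho of the 2 scores over the members of the chain had a median of 0.75 (quartiles 0.64 and 0.82) and was above 0.5 in 607. The lowest was -0.10. The chain medians of the replicates were also correlated (rho 0.74 across 671 chains). Over all members rho was 0.76, so chain medians were not more alike between the captures than single members by this measure. At single members the quartiles of the replicate 2 over the replicate 1 score were 0.784 and 1.43.

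Of the 10 longest chains, 5 had the same highest member in both captures, and each mixed strong with weak members. The longest, at 9341595 to 9606384 on chromosome 12, held 60 members with median scores of 254.5 in replicate 1 and 259.6 in replicate 2, from 54.8 to 993.7 and from 63.3 to 1033. Its top member in both was the region at 9475063 to 9479342, at place 33 of 68. Its first region (9341595 to 9343910) scored 121.8 and 89.8 and its last (9604082 to 9606384) 147.2 and 67.1, well below the inside medians of 257.6 and 266.8. Among its 8 wide regions, the one at 9444918 to 9451356 scored 214.9 in replicate 1 and 1224 in replicate 2, and the one at 9393356 to 9400372 scored 1359 and 1022. The break before this chain measured 6510 bp and the break after it 5250 bp, both close to the limit.

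On chromosome 4, the 252.5 kb chain at 7573937 to 7826403 had 68 members with medians of 219.5 and 251.1 and a single top member at 7690275 to 7692906 (scores 1005 and 1030). The chain at 30206927 to 30411926 on chromosome 18 measured 205.0 kb but was weaker, with medians of 156.1 and 141.4 and no member above 615.9 in replicate 1 or 588.8 in replicate 2. The chain at 40727948 to 40930199 on chromosome 1 had medians of 212.8 and 286.6, and that at 619548 to 821365 on chromosome 25 had 262.1 and 247.0. The strongest of the 10 were on chromosome 18, 17436416 to 17623891 (medians 346.8 and 422.4), and on chromosome 23, 22985222 to 23170771 (medians 386.1 and 310.2). That chromosome 23 chain had no peak of 1 capture alone, and its member at 23152555 to 23157228 reached 1899 in replicate 1 and 1716 in replicate 2. The other chromosome 23 chain (29195751 to 29387388) had medians of 204.7 and 197.0. On chromosome 22, the chains at 11262427 to 11456211 and 17035172 to 17218558 had medians of 220.7 and 261.6, and of 251.8 and 263.8. Ends were weaker than the inside in both replicates in 5 of these 10 chains, so the longest chains were mixed in this respect.

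**Figure D4:**
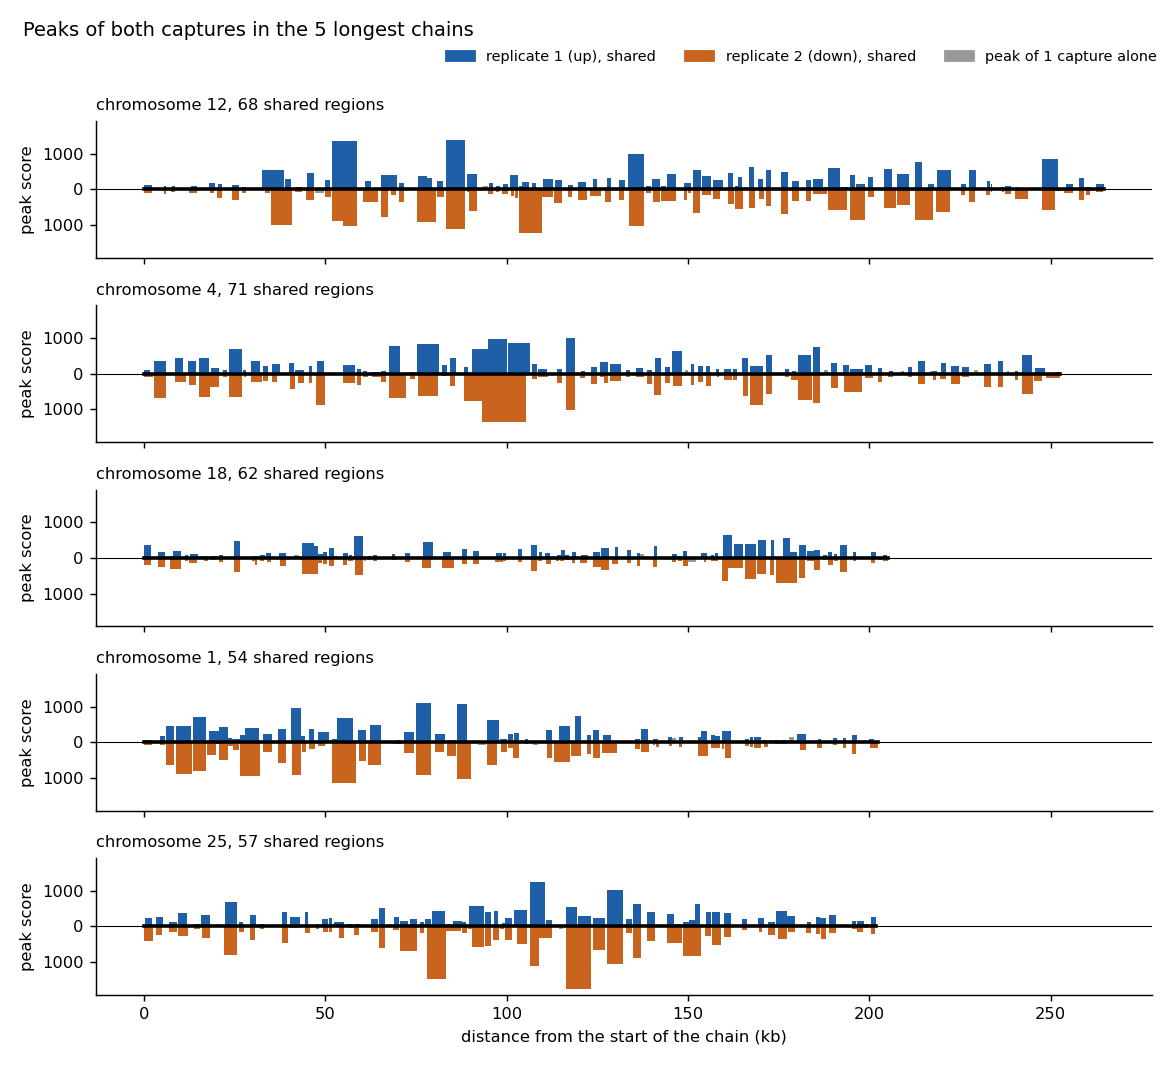
Peaks of both captures in the 5 longest chains against the distance from the chain start in kb; each bar is a peak, as wide as the peak and as high as its score, replicate 1 upwards and replicate 2 downwards, and grey marks peaks of 1 capture alone. Strong peaks recur at the same places in both captures between many weak ones, the chromosome 18 chain is weaker than the others, and grey peaks are few.

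Of the 5 most covered chains, 4 held wide regions. First was chromosome 13, 5166599 to 5237856, with 95.4% of 71.3 kb under 9 regions, of which 3 were wide and 1 of those measured 34508 bp. Its 6 members had medians of 310.2 in replicate 1 and 270.1 in replicate 2. Next came chromosome 7, 70430172 to 70586813, with 83.3% covered and 10 wide regions, the most of any chain, then chromosome 24, 23842445 to 23926155, with 82.2% and 4 wide regions. Chromosome 10, 15486120 to 15552653, reached 81.6% with 21 members and no wide region, across a median gap of 355 bp. Chromosome 5, 16010540 to 16065944, was 80.9% covered, with 5 wide regions beside 6 weak members (medians 110.8 and 98.2). In all, 321 chains held a wide region and 350 held none, and 40.5% of the 1368 wide shared regions of the genome stood in long chains. Since a wide region itself adds to chain length, this share is no independent finding.

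The chain with the highest median score rank, at 44141814 to 44196765 on chromosome 12, shows how strong and weak members alternated. It was 54952 bp long with 12 members after a wide first region. In order, its members scored 633.4, 137.2, 544.8, 1414, 1380, 270.3, 1132, 156.8, 149.4, 245.5, 610.5 and 633.3 in replicate 1. In replicate 2 they scored 400.7, 95.8, 518.5, 1404, 1008, 348.8, 1044, 206.8, 132.5, 250.7, 588.0 and 545.4. Highs and lows fell on the same members in both captures. The highest was at 44161718 to 44166537. After it by median rank came chains on chromosome 2 (27640892 to 27701577, medians 390.8 and 473.6), chromosome 12 (36615646 to 36693803, 418.3 and 427.0), chromosome 20 (32318497 to 32372295, 313.4 and 441.7) and chromosome 19 (6758477 to 6829701, 396.6 and 424.7).

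At the weak end stood chromosome 22, 39029916 to 39085563, with medians of 107.6 in replicate 1 and 74.6 in replicate 2. Even there 2 members near its far end were strong, at 39074440 to 39077394 (604.9 and 400.2) and 39079389 to 39081064 (542.4 and 400.5). The next weakest chains were the chromosome 5 chain named above and chains on chromosome 19 (16962862 to 17015613, medians 106.6 and 102.3), chromosome 2 (43417213 to 43491052, 104.6 and 127.3) and chromosome 3 (25690837 to 25750308, 109.9 and 145.4). All of these were under 75 kb. A long chain thus did not need a high median member score, although few chains were this weak.

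The strongest members by mean score rank over both lists were near the upper width limit, at 4302 to 4857 bp. First was chromosome 1, 4172796 to 4177597, which scored 1875 in replicate 1 and 2775 in replicate 2 and was the first region of a 65.5 kb chain. It was followed by chromosome 14, 34697014 to 34701315 (2227 and 1833), also at a chain end, in a chain of 60.3 kb. The other three stood inside chains, on chromosome 22 (17166894 to 17171635, scores 1952 and 1811), chromosome 7 (48376252 to 48381108, 1580 and 2437) and chromosome 11 (22745524 to 22750037, 1932 and 1758).

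Some chains differed between the captures in the median score rank of their members. The median score rank of a chain's members differed by a median of 4.69 percentile points between replicates, and by over 20 points in 14 chains. The largest difference was at 37609711 to 37660318 on chromosome 17, where the median rank was 27.8 points higher in replicate 2 (median scores 112.4 in replicate 1 and 222.0 in replicate 2). There 10 of 12 members scored higher in replicate 2, among them 37634747 to 37638045 (55.8 and 212.7) and 37649891 to 37651699 (60.4 and 231.2). Chromosome 11 had chains at 130401 to 208887 (98.2 and 183.7) and 31365536 to 31422951 (96.2 and 165.0) that were also higher in replicate 2. Chains at 35645119 to 35735028 on chromosome 25 (202.7 and 119.8) and the weak chromosome 22 chain above (107.6 and 74.6) were higher in replicate 1. In that chromosome 22 chain some members scored higher in replicate 2. The chains named here were picked as the most different of all 671. The source of these differences was not tested.

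Long chains could also be built from either capture alone, but their ends moved. Replicate 1 alone gave 872 chains above 50 kb and replicate 2 alone 916, with longest chains of 308.3 and 331.2 kb. Of the replicate 1 chains 651 (74.7%) overlapped a long chain of replicate 2, and of the replicate 2 chains 643 (70.2%) overlapped one of replicate 1. The 221 and 273 chains without such a partner were short, with median lengths of 57.7 and 58.4 kb, and all of them held peaks of the other replicate, a median of 16. Of the 671 shared chains, 603 overlapped a long chain in both single lists and 6 in neither. Each region of a shared chain has a peak in both lists, so much of this overlap follows from the choice. For the overlaps between the single lists, no share expected from peak density alone is given. Where a single chain of replicate 1 matched a single chain of replicate 2 (576 pairs), their ends lay a median of 1268.5 bp apart. Within 1000 bp lay 48.9% of the 1152 ends, whereas 18.1% were over 20 kb apart.

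Many chains ended at a narrow break. Of the 1339 ends with a further shared region on the chromosome, 341 (25.5%) faced a gap of 5000 to 6000 bp and 288 a gap of 6000 to 7500 bp. Gaps of 10 to 20 kb stood at 311 ends and gaps of over 20 kb at 130 (9.71%). The median gap beyond an end was 7693 bp. In 863 of these gaps (64.5%) there was a peak of 1 capture alone, in 490 of replicate 1 and in 539 of replicate 2. If such peaks had taken part in linking, 477 of the ends (35.6%) would have been bridged. The same shares at breaks away from long chains are not given, so neither value can be read as particular to these ends. At 50 breaks the next chain was itself a long chain, and 44 neighbouring chains were at most 10 kb apart, so the linking limit divided some longer stretches.

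Chains lay on all 25 chromosomes, at 0.495 per Mb over the genome and 0.499 ± 0.138 per Mb (mean and SD over chromosomes). Chromosomes 23, 11 and 24 had the most, with 0.733, 0.729 and 0.728 per Mb, followed by chromosomes 10 (0.687) and 13 (0.684). Chromosome 8 had the fewest, with 0.285 per Mb, then chromosomes 25 (0.338), 6 (0.350) and 22 (0.355). The highest and lowest density differed 2.57-fold, while shared regions as a whole differed 1.78-fold between chromosomes. These 5 densest chromosomes held 169 chains (25.2%) on 17.5% of the span. They were picked by chain density, so a chain share above the span share follows from the choice. Chains are made by linking shared regions, so the choice itself ties their density to that of shared regions. Chains per Mb rose with shared regions per Mb across chromosomes (Spearman's rho 0.71 over 25 chromosomes). Chromosome 9 departed from this, with 91.9 shared regions but 0.446 chains per Mb. Chromosome 22 had only 15 chains, but their median coverage, 68.6%, was the highest of any chromosome. Chromosome 7 had the most chains, 45, over 3788 kb.

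Chromosome 4 was divided. The last of its 27 chains ended at 23053018. The density was 0.964 per Mb over its first 28 Mb, and there was no chain beyond. The numbers of shared regions on each side of 28 Mb are not given here. Whether chains were split more sharply than shared regions thus cannot be read from this. Chromosome 4 had the fewest shared regions per Mb of any chromosome, 55.9, but 21.1% of them were members, a larger share than on any other. Its chains also had the highest median length, 88.5 kb. The boundary at 28 Mb was set earlier with results of these data known.

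Along the chromosomes, chains were most frequent in the middle. Each chromosome was divided into 10 equal parts, and counts were summed over chromosomes. Parts 5, 6 and 7 held 90, 96 and 86 chains, or 40.5% of the chains together, against 33.9% of all shared regions. They are the parts with the most chains, so grouping them favours a chain share above that of shared regions. Part 1 held 79 chains (11.8% of chains, 10.6% of shared regions). Parts 2 and 9 held 45 and 44 (6.71% and 6.56% of chains, 9.38% and 8.52% of shared regions). Within 2 Mb of a chromosome end lay 63 chains (9.39%), on 22 chromosomes, where such ends make up 7.37% of the span. The share of all shared regions near these ends is not given here, so no excess over them can be read from this.

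**Figure D5:**
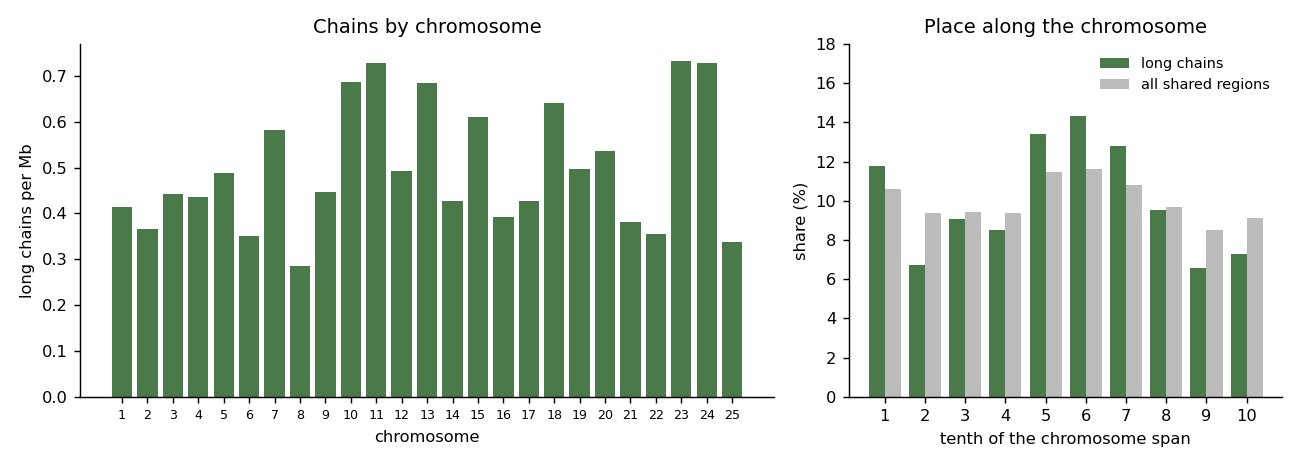
Left, long chains per Mb of each chromosome; right, percentage of the 671 long chains and of all 110315 shared regions in each of 10 equal parts of the chromosome span, summed over chromosomes. Chromosomes 23, 11 and 24 stand highest at 0.728 to 0.733 per Mb and chromosome 8 lowest at 0.285, and chains exceed shared regions in part 1 and in parts 5 to 7.

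Chains also stood near other chains in places. The median distance to the next long chain was 860.8 kb (quartiles 187.5 and 2203 kb), and 121 of 646 were within 100 kb. Of 1344 full windows of 1 Mb, 447 (33.3%) held the midpoint of a chain, and 45 windows held 3 or more. Chromosome 13 between 5 and 6 Mb and chromosome 24 between 1 and 2 Mb had 6 chains each, which together measured 403.1 and 487.1 kb. At the other extreme 51 distances exceeded 5 Mb. The widest stretch without a chain ran from 7086228 to 25527914 on chromosome 14 (18.4 Mb).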

How the data were processed

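5hmC was captured from sheared heart DNA in 2 samples, with 2 matched inputs that were not analysed here. Reads were aligned with BWA, per the labels' protocols, to danRer7, per the submitters' processing notes. The deposited files list, for each capture, the start and end of every peak in base pairs and a score that the authors' peak caller gave it. Peak names carry the word MACS; the scale of the score and the MACS version, settings and control were not given in the sources used here. The lists were deposited per capture.

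Peaks were merged, linked and described with Python 3.11.15, numpy 2.4.6, pandas 2.3.3, scipy 1.17.1 and matplotlib 3.10.9, and the functions were tested on simulated data. Score ranks are percentiles within each list. Named chains are the 10 longest and 5 each with the highest coverage, the highest and the lowest median score rank, and the most different rank between captures. Named members are the 5 with the highest mean rank and the ends of the longest chain; other members named inside these chains were chosen after their values were seen. Members and rules were chosen with earlier results of these data known. The sensitivity of 6 results to gap, score, overlap, capture, width and length limits was computed. The read depth behind a peak is not in the lists, so no counting error is given.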

Additional observations from a re-analysis of the deposited data

How the results depend on the processing

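Of 81 alternative values, 48 moved by less than their limit, 33 moved by more and 0 reversed. Only a score ratio could reverse, by crossing 1, so counts, coverage and the chromosome share could not. The limit was 1.5-fold for counts, 1 SD over chromosomes for score ratios, 1.52 percentage points (the SD between captures) for coverage and the 95% Wilson interval for the share of chains on the 5 densest chromosomes. The inside over end ratio of pooled medians was above 1 under each alternative tried for it. However, the median ratio within chains, with both ends reduced to 1 median, was 1.02 in replicate 1 and 0.976 in replicate 2. Chain numbers depended most on the linking gap. Gaps of at most 3000, 4000 and 7500 bp gave 164, 368 and 1398 chains, with 3300, 7648 and 30808 members, median coverage of 71.1, 64.2 and 47.2%, and member over other score ratios of 1.83, 1.68 and 1.45 in replicate 1 and 1.87, 1.68 and 1.46 in replicate 2. With 7500 bp the share on the 5 chromosomes was 21.4%. Using only the peaks that scored above their list's median gave 182 chains, 3013 members, 62.5% coverage and a replicate 2 ratio of 1.47. Regions with a peak in either capture gave 1360 chains, 34857 members and 53.9% coverage, and leaving out wide regions before linking also gave 53.9%. Length limits of 40000 and 75000 bp gave 1038 and 260 chains. With 1 capture left out, members numbered 21770 to 22493 and coverage was 51.2 to 53.4%. In comparisons added after seeing the data, the replicate 2 ratio was 1.71 with chains of the other capture, and regions of 1000 to 2000 bp gave 1.40 and 1.42. Gap and length limits, and the choice of which peaks or regions take part in linking, act on chain number, size and coverage by construction. Beyond this the cause of the moves was not tested.

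No paired analysis was possible because the inputs that share replicate numbers with the captures had no values analysed here. Without input values, local differences in mappability or copy number cannot be told apart from 5hmC, and score ratios depend on an unstated scale.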
